A study of Schizosaccharomyces pombe with 24 samples.

Results

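RNA interference in the fission yeast *S. pombe* is run by a small set of proteins, and the transcripts of 10 genes that encode them were followed here in cells carrying H2B mutations. The genes were taken by symbol from the deposited tables, and all 10 were found among the 5195 genes listed: *dcr1*, *ago1*, *chp1*, *tas3*, *arb1*, *arb2*, *rdp1*, *hrr1*, *cid12* and *ers1*. No measured value was used to choose them. Dicer (Dcr1) cuts double-stranded RNA into small RNAs, which are loaded onto Argonaute (Ago1). The ARC complex (Ago1, Arb1 and Arb2) takes up the duplex, and the RITS complex (Ago1, Chp1 and Tas3) carries the single-stranded guide to nascent transcripts, with the Chp1 chromodomain binding methylated H3K9. The RDRC complex (Rdp1, Hrr1 and Cid12) copies the target into new double-stranded RNA, and Ers1 links RDRC to heterochromatin. In this yeast the pathway is best known for the heterochromatin of the centromeric repeats.

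The data are RNA-seq libraries of oligo(dT)-selected RNA, 24 in all and 3 per genotype. The 8 genotypes were *htb1-G52D*, *htb1-P102L*, *htb1-E75Q*, *htb1-D67N*, *htb1-E112K* and *htb1-E34K*, each with 1 substitution in the single H2B gene *htb1*, a strain labelled as lacking the H3K4 methyltransferase gene *set1* (named set1-labelled below), and WT. The mutants were given as *leu1-32 ura4-D18*, as was WT. According to the strain list, *htb1-G52D* and *htb1-P102L* were h- with an undetermined *ade6* allele, and the other H2B mutants were h+ *ade6-M210* with *kanMX6* at *htb1*. WT was h+ *ade6-M216* without *kanMX6*, so mating type, *ade6* and the marker also differed between WT and several mutants. For *set1* the labels name a deletion in the title and a knockdown in the genotype, and the study names 2 strains, of which the listed strain was h+ *leu1-32 ura4-D18 set1Δ::kanMX6*. Each H2B mutant was a single strain, and no treatment was named in the labels.

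Each library held 18935513 to 28181070 counts. The markers went against the strain list in several libraries. *set1* had 336, 362 and 412 counts in the set1-labelled libraries, against 20, 20 and 32 in WT, so a deletion was not seen in them. *ura4* had 1382 counts in *htb1-G52D* replicate 1, 712 in *htb1-P102L* replicate 1 and 865 in WT replicate 3, and at most 2 counts elsewhere. The h- gene *mat1-Mc* had 103 counts in WT replicate 3, and it was at 0 in *htb1-G52D* replicate 3 and in *htb1-P102L* replicate 3. *mei4* and *isp3*, which mark meiosis and spores, were called higher than WT in every genotype except *htb1-E34K*, and the part of these differences in the results below was not tested. The 7 comparisons with WT share the same 3 WT libraries, so they are not independent of each other.

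Levels are given as CPM, the counts of a gene relative to the TMM-scaled library size (counts-per-million scale), and the error of a mean is the SD of 3 libraries. A gene was called when edgeR's quasi-likelihood test gave a Benjamini-Hochberg adjusted p under 0.05 over all tested genes together with at least a 2-fold difference, and a log2 fold change is followed by its standard error (SE). In RNA of whole cultures, a change in the share of cells that express a gene and a change per cell cannot be told apart. Per length, the genes were among the less abundant transcripts of WT cells. The mean FPKM (fragments scaled by length and library, as deposited) in WT was 3.51 ± 1.48 for *ago1* and 2.29 ± 0.638 for *arb1*, which exceeded the mean of 47.8% and 40.2% of all genes. It was 0.760 ± 0.0200 for *cid12*, and between 0.417 and 0.473 for *chp1*, *rdp1*, *tas3* and *arb2*. The lowest were *hrr1* at 0.243 ± 0.0666, *dcr1* at 0.100 ± 0.0458 and *ers1* at 0.0700 ± 0.0608, above only 8.8%, 4.4% and 3.5% of genes. *ago1* and *arb1* thus stood apart from the other 8 genes, of which *dcr1*, *arb2* and *ers1* fell to 6, 5 and 2 counts in their lowest library.

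**Figure D1:**
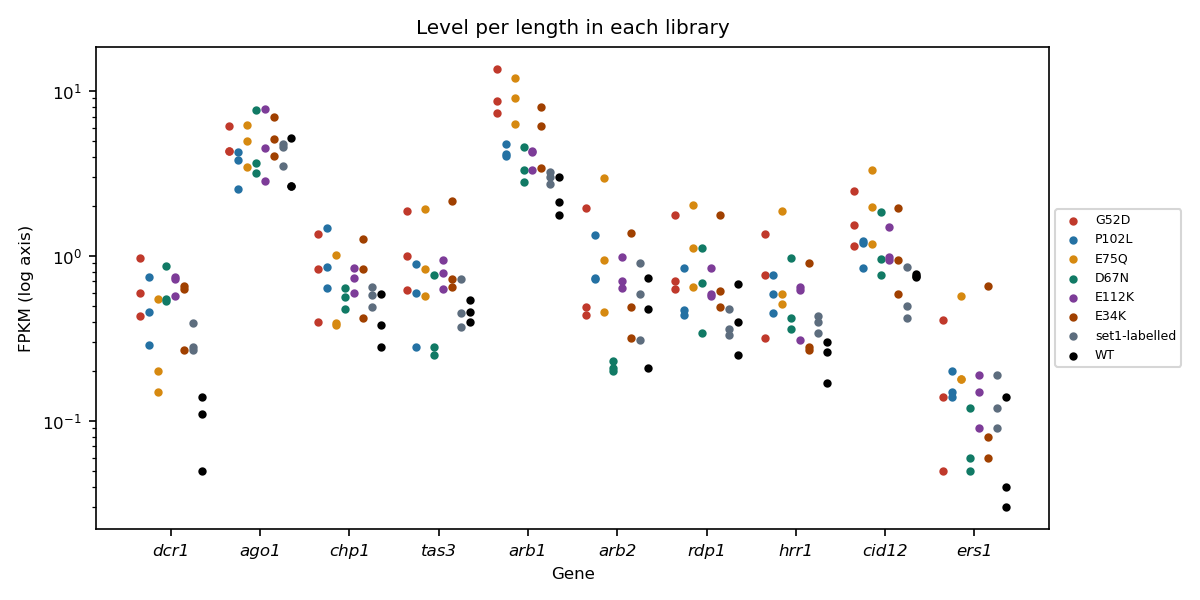
FPKM per library (log axis) of the 10 genes, ordered by role, with 3 points for each genotype in the colour of the legend and WT in black at the right of each gene. *ago1* and *arb1* lay highest, with WT means of 3.51 and 2.29 FPKM, and the WT points of *dcr1* lay below all its other points.

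*dcr1* was the gene of the set that most often differed from WT, and it was higher each time. It was called higher in *htb1-G52D*, *htb1-P102L*, *htb1-D67N*, *htb1-E112K* and the set1-labelled libraries, and it was not called in *htb1-E75Q* or *htb1-E34K*. *dcr1* had 3.37, 3.89 and 4.19 CPM in *htb1-E112K*, 3.43, 3.27 and 3.62 CPM in *htb1-D67N*, and 3.58, 2.45 and 3.0 CPM in *htb1-G52D*. The level was 2.89, 3.23 and 2.03 CPM in *htb1-E34K*, 2.04, 2.47 and 3.6 CPM for *htb1-P102L*, and 2.22, 1.65 and 1.76 CPM in the set1-labelled libraries. The *htb1-E75Q* libraries had 0.985, 2.03 and 0.940 CPM, against 0.891, 0.374 and 0.919 CPM in WT. Every 1 of the 21 libraries of the other genotypes was therefore above all 3 WT libraries, although 2 of the *htb1-E75Q* libraries were so by very little (22 and 19 counts, against 15 and 18 in WT replicates 1 and 3). Such a gap from WT was found for 2.09% of the genes with a mean of at least 0.5 CPM (103 of 4918), and *dcr1* was the only 1 of the 9 RNAi genes of that level to show it.

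The log2 fold change of *dcr1* over WT was 2.39 (SE 0.311, adjusted p = 0.000493) in *htb1-E112K*, 2.28 (SE 0.340, adjusted p = 0.000578) in *htb1-D67N* and 2.04 (SE 0.385, adjusted p = 0.00264) in *htb1-G52D*. It was 1.90 (SE 0.371, adjusted p = 0.0021) in *htb1-P102L* and 1.40 (SE 0.342, adjusted p = 0.0125) in the set1-labelled libraries. In *htb1-E34K* the value was as large, 1.92 (SE 0.444), but its adjusted p was 0.100, in a comparison in which only 5 of 4862 genes were called. DESeq2 (log2 fold change 1.88, adjusted p = 0.0121) and a single edgeR fit of all 24 libraries (1.89, adjusted p = 0.00172) called it there. The value in *htb1-E75Q*, 0.83 (SE 0.531, adjusted p = 0.236), was called by none of the alternatives that tested it. In the order of the means (*htb1-E112K*, *htb1-D67N*, *htb1-G52D*, *htb1-E34K*, *htb1-P102L*, set1-labelled, *htb1-E75Q*, WT), each pair of neighbours overlapped except *htb1-E75Q* and WT. *dcr1* also varied among the 7 genotypes other than WT (edgeR F test, adjusted p = 0.00297), as did 58.6% of all genes.

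The limit of the *dcr1* values is the low level in WT, 15, 6 and 18 counts. Without the libraries that hold *ura4* counts the log2 fold changes of the 5 called genotypes were between 1.6 and 2.59, and all 5 remained called. The call in the set1-labelled libraries was lost without their replicate 1 (1.26, edgeR adjusted p = 0.0602). *dcr1* is among the longest genes, longer than 98.5% of all genes in its exons, and a correction for gene length lowered the log2 fold change to 1.32 in *htb1-G52D* (adjusted p = 0.0113) and to 0.04 in *htb1-E75Q* (adjusted p = 0.961), with all 5 calls kept in edgeR.

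**Figure D2:**
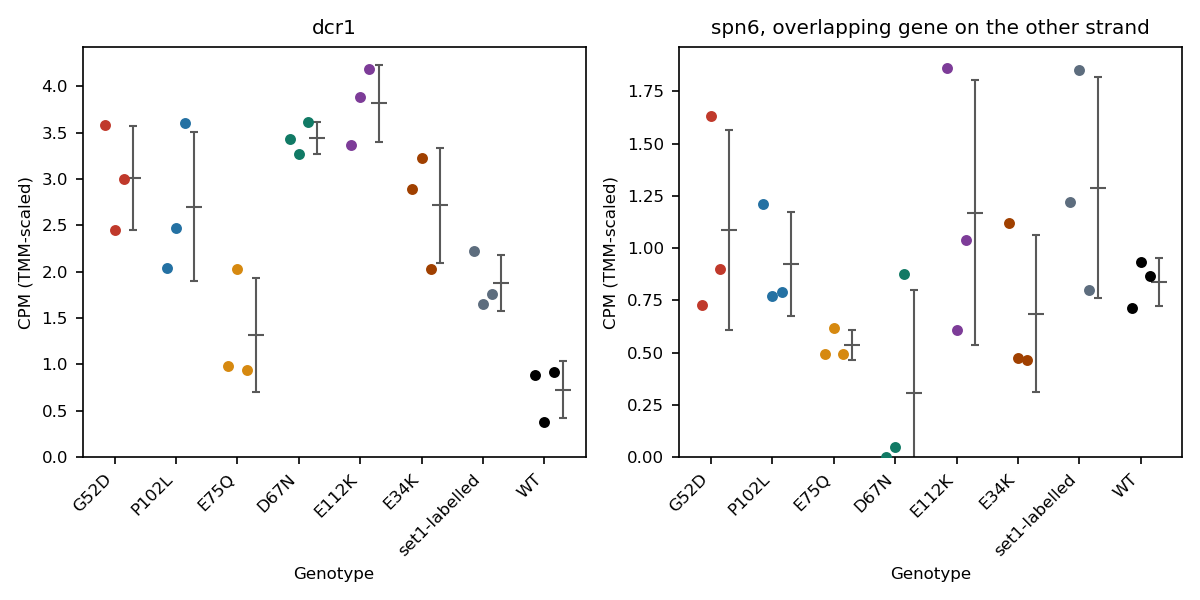
CPM per library of *dcr1* (left) and of *spn6* (right), a septin gene on the other strand that overlaps it, for the 6 H2B mutants, the set1-labelled libraries and WT. Points are libraries, and the horizontal mark with its bar is the mean and SD of 3. All 21 points of the other genotypes lay above the 3 WT points for *dcr1*, which did not hold for *spn6*.

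In the ASM294v3 annotation of RefSeq, 33.9% of *dcr1* is also covered by *spn6*, which runs towards it from the other side, and the use of strand in counting was not given in the sources used here, so reads of the shared stretch cannot be told apart. *spn6* had 25, 30 and 24 counts in *htb1-G52D*, 58, 13 and 28 in *htb1-E112K* and 23, 46 and 19 in the set1-labelled libraries, against 12, 15 and 17 in WT. It had 0, 1 and 23 counts in *htb1-D67N*, in which *dcr1* was high in all 3 libraries. *spn6* was called in none of the 7 comparisons with WT, with log2 fold changes from -1.19 (SE 0.833) in *htb1-D67N* to 0.69 (SE 0.366) in the set1-labelled libraries and edgeR adjusted p of at least 0.191.

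The genes whose genotype means ran most like those of *dcr1* were SPAC1F12.10c (Pearson r = 0.905), SPBC800.14c (r = 0.903) and *lid2* (r = 0.853), the last encoding a JmjC and PHD finger protein. They were taken from 3391 genes with a mean of at least 5 CPM by the correlation of log2 CPM over the 8 genotype means, which share their libraries, and no test was made. SPBC800.14c, for example, averaged 32.8 CPM in *htb1-D67N*, 29.8 CPM in *htb1-G52D* and 16.5 CPM in *htb1-E75Q*, against 9.86 CPM in WT.

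*ago1*, the Argonaute gene, was nearly level. Its mean was 10.6 ± 0.835 CPM for *htb1-G52D*, 9.10 ± 0.769 CPM in *htb1-P102L* and 13.5 ± 1.01 CPM in *htb1-E34K*, against 11.7 ± 3.42 CPM in WT. The log2 fold changes over WT lay between -0.34 and 0.24 in the 7 comparisons, none with an unadjusted p under 0.05. The *ago1* means differed by less than the range of the 3 WT libraries (9.56, 9.85 and 15.6 CPM).

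The other RITS genes, *chp1* and *tas3*, were not called in any comparison. *chp1* had 3.06, 3.20 and 4.93 CPM in *htb1-P102L*, against 1.48, 3.24 and 1.68 CPM in WT, and this was its largest difference from WT (log2 fold change 0.84, SE 0.321, edgeR adjusted p = 0.0584). WT replicate 2 lay within the *htb1-P102L* range, and without it *chp1* was called (1.26, edgeR adjusted p = 0.0125). *tas3* had 0.643, 0.654 and 1.26 CPM in *htb1-D67N*, against 1.66, 1.43 and 1.02 CPM in WT, and 3.62, 1.45 and 1.92 CPM in *htb1-E34K*. Its log2 fold changes ran from -0.58 (SE 0.394) in *htb1-D67N* to 0.81 (SE 0.446) in *htb1-E34K*, and neither was called (edgeR adjusted p = 0.276 and 0.362).

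In ARC, *arb1* was called higher than WT in *htb1-G52D* and *htb1-E75Q*. Arb1 binds Ago1 and inhibits its slicing activity. *arb1* had 13.4, 11.5 and 11.7 CPM in *htb1-G52D* and 11.8, 11.8 and 10.9 CPM in *htb1-E75Q*, against 6.35, 3.8 and 3.73 CPM in WT. The log2 fold change was 1.41 (SE 0.231, edgeR adjusted p = 0.00125) in *htb1-G52D* and 1.30 (SE 0.247, edgeR adjusted p = 0.00149) in *htb1-E75Q*. All 3 libraries of both mutants lay well above WT, where 29.1% and 26.0% of all genes were higher without overlap. Both calls held under all alternatives run, among them the gene-length correction (1.28 and 1.26).

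The remaining genotypes had less *arb1*. It had 9.41, 8.65 and 6.97 CPM in *htb1-E34K* (log2 fold change 0.89, SE 0.287, edgeR adjusted p = 0.188) and 7.90, 5.94 and 6.29 CPM in *htb1-P102L* (0.55, SE 0.229, edgeR adjusted p = 0.0771). The level was 5.37, 6.18 and 6.60 CPM in *htb1-E112K*, 4.87, 5.33 and 5.14 CPM in *htb1-D67N* and 4.97, 4.82 and 4.92 CPM in the set1-labelled libraries. *htb1-P102L* and these last 3 genotypes overlapped WT. Their log2 fold changes, for the last 3, were 0.42, 0.21 and 0.15, and the sign in the set1-labelled libraries turned when WT replicate 3 was left out (-0.00042). In the order of the means, the gaps between *htb1-E75Q* and *htb1-E34K* and between *htb1-E112K* and *htb1-D67N* were free of overlap, and all other neighbours overlapped. *arb1* had the lowest adjusted p of the 10 genes in the test over the 8 genotypes (8.04e-07) and in that over the 7 genotypes other than WT (8.93e-07).

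*arb2*, which encodes the other Argonaute-binding protein, had between 5 and 68 counts per library and was not called in the 6 comparisons that tested it. Its lowest values were those of *htb1-D67N*, 0.321, 0.252 and 0.190 CPM, against 0.356, 1.25 and 0.664 CPM in WT. All 3 *htb1-D67N* libraries were below the lowest WT library, on 6, 5 and 5 counts against 6, 20 and 13, and the gene did not pass the filter on low counts there. Of the genes that passed, 22.3% were lower than WT without overlap.

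**Figure D3:**
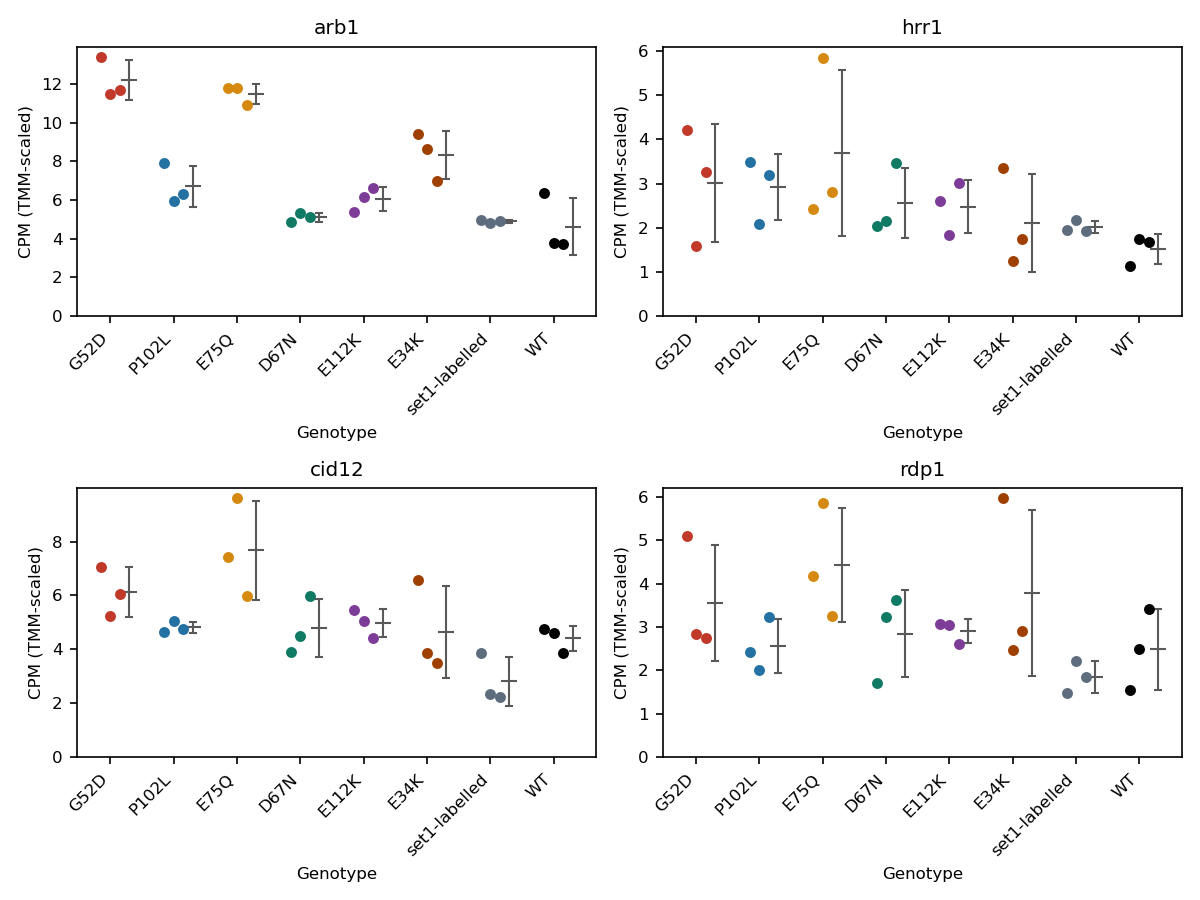
CPM per library of *arb1* (ARC) and of the RDRC genes *hrr1*, *cid12* and *rdp1*, with points for libraries and the mean and SD of 3 beside them. *arb1* was higher than WT in all 3 libraries of *htb1-G52D* and *htb1-E75Q*, and 1 *htb1-E75Q* library stood above the other 2 for each RDRC gene.

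Among the RDRC genes, *hrr1*, which encodes the helicase, was above WT on average in all 7 genotypes and was called in *htb1-E75Q* alone. It had 2.42, 5.85 and 2.82 CPM there, against 1.13, 1.75 and 1.68 CPM in WT (log2 fold change 1.26, SE 0.404, edgeR adjusted p = 0.0268). Its value in *htb1-E75Q* replicate 2 was over that of any other library, and without it the log2 fold change was 0.80 (edgeR adjusted p = 0.0886). The call was also lost without WT replicate 1 (1.09), without WT replicate 2 (1.36), without WT replicate 3 (1.35) and with the gene-length correction (0.58, edgeR adjusted p = 0.224).

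*hrr1* had 3.5, 2.08 and 3.2 CPM in *htb1-P102L*, all above WT, as for 27.4% of all genes. Its adjusted p was 0.0268 in edgeR, with less than a 2-fold difference (log2 fold change 0.95, SE 0.299). In *htb1-G52D* it had 4.22, 1.58 and 3.26 CPM and overlapped WT (log2 fold change 1.01, SE 0.395, edgeR adjusted p = 0.0636). The log2 fold change was 0.83 in *htb1-D67N*, 0.74 in *htb1-E112K*, 0.51 in *htb1-E34K* and 0.48 in the set1-labelled libraries. Of these, the *htb1-E34K* value rested on replicate 1 (3.35 CPM, against 1.24 and 1.74 CPM in the other 2) and was -0.02 without it. The SPCC1739.04c gene on the other strand covers 27.8% of *hrr1*, and it was called in none of the comparisons with WT.

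*cid12*, which encodes a nucleotidyltransferase of the poly(A) polymerase family, had 7.43, 9.60 and 5.98 CPM in *htb1-E75Q*, against 4.75, 4.61 and 3.88 CPM in WT. The groups did not overlap, and 26.0% of all genes were higher than WT without overlap there. The adjusted p of 0.0268 in edgeR went with a difference under 2-fold (log2 fold change 0.79, SE 0.251). Over the settings run this value lay between 0.14 and 1.51. *cid12* was also above WT without overlap in *htb1-G52D* (29.1% of all genes). In *htb1-P102L* it was so only when scaled without the other genotypes (27.4%). The *htb1-G52D* value (log2 fold change 0.48, SE 0.211, edgeR adjusted p = 0.0923) took both signs over the settings run, from -0.09 to 1.18. At the other end, the set1-labelled libraries had 3.86, 2.33 and 2.23 CPM (log2 fold change -0.60, SE 0.242, edgeR adjusted p = 0.0913). The highest of them lay just under the lowest WT library, and the groups overlapped when scaled without the other genotypes. *cid12* was the last of the 3 genes that varied among the 8 genotypes (edgeR F test, adjusted p = 0.00314), after *arb1* and *dcr1* (adjusted p = 6.07e-05), in a test that 68.8% of all genes passed. Genes on the other strand cover 48.5% (*trp663*) and 14.8% (*naa50*) of *cid12*, and *naa50* was called lower than WT in *htb1-G52D*, *htb1-D67N* and *htb1-E112K*.

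*rdp1*, the RNA-dependent RNA polymerase gene, had 4.17, 5.85 and 3.26 CPM in *htb1-E75Q*, against 1.54, 2.49 and 3.42 CPM in WT, and was not called (log2 fold change 0.81, SE 0.355, edgeR adjusted p = 0.0886). *htb1-G52D* replicate 1 (5.09 CPM) and *htb1-E34K* replicate 1 (5.98 CPM) were high while the other 2 libraries of each lay within the WT range. *ers1* had 2 to 39 counts per library. It could be tested against WT only in *htb1-E75Q* (0.448, 1.10 and 0.594 CPM, against 0.594, 0.125 and 0.153 CPM in WT) and *htb1-E112K*, and its log2 fold changes of 1.29 (SE 0.724) and 0.64 (SE 0.666) were not called.

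Over the set as a whole, 8 of 64 tests of an RNAi gene against WT were called, all higher. In *htb1-G52D* 2 of 9 tested genes were called higher, where 13.4% of all tested genes were. The count was 1 of 9 for *htb1-P102L* (9.93% of all genes), 2 of 10 for *htb1-E75Q* (13.0%), 1 of 8 for *htb1-D67N* (10.8%), 1 of 10 for *htb1-E112K* (7.96%) and 1 of 9 in the set1-labelled libraries (5.16%). With so few genes, each of these counts is within 1 gene of the share called among all genes. In *htb1-E34K* none of 9 was called in edgeR (0.103% of all genes), 2 had an unadjusted p under 0.05 (*dcr1* and *arb1*), as did 18.5% of all genes, and DESeq2 called 1 higher, where it called 2.01% of all genes higher. No RNAi gene was called lower than WT by edgeR or by DESeq2, and 1 had a lower value with an unadjusted p under 0.05 (*cid12* in the set1-labelled libraries). Of all genes, 8.07% were called lower in *htb1-G52D*, 3.48% for *htb1-P102L*, 8.48% for *htb1-E75Q*, 4.48% for *htb1-D67N*, 2.34% for *htb1-E112K*, 0.0% for *htb1-E34K* and 1.3% in the set1-labelled libraries.

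The median log2 fold change over WT of the tested RNAi genes was 0.52 for *htb1-G52D*, 0.55 for *htb1-P102L*, 0.81 for *htb1-E75Q*, 0.20 for *htb1-D67N*, 0.39 for *htb1-E112K*, 0.51 for *htb1-E34K* and 0.11 in the set1-labelled libraries. The median of all tested genes was between 0.005 and 0.091 in the same comparisons. The RNAi genes are long: 8 of 10 exceed the median exonic length of 1682 bases, the exceptions being *arb1* (1460 bases) and *arb2* (1088 bases). With the correction for gene length the medians of the set were 0.22, 0.46, 0.28, -0.17, 0.25, 0.28 and 0.05 in the same order of genotypes, and those of all genes were between -0.12 and -0.03. Scaling to total counts moved the median of all genes to between 0.211 and 0.765, and that of the RNAi genes to between 0.32 and 1.54.

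**Figure D4:**
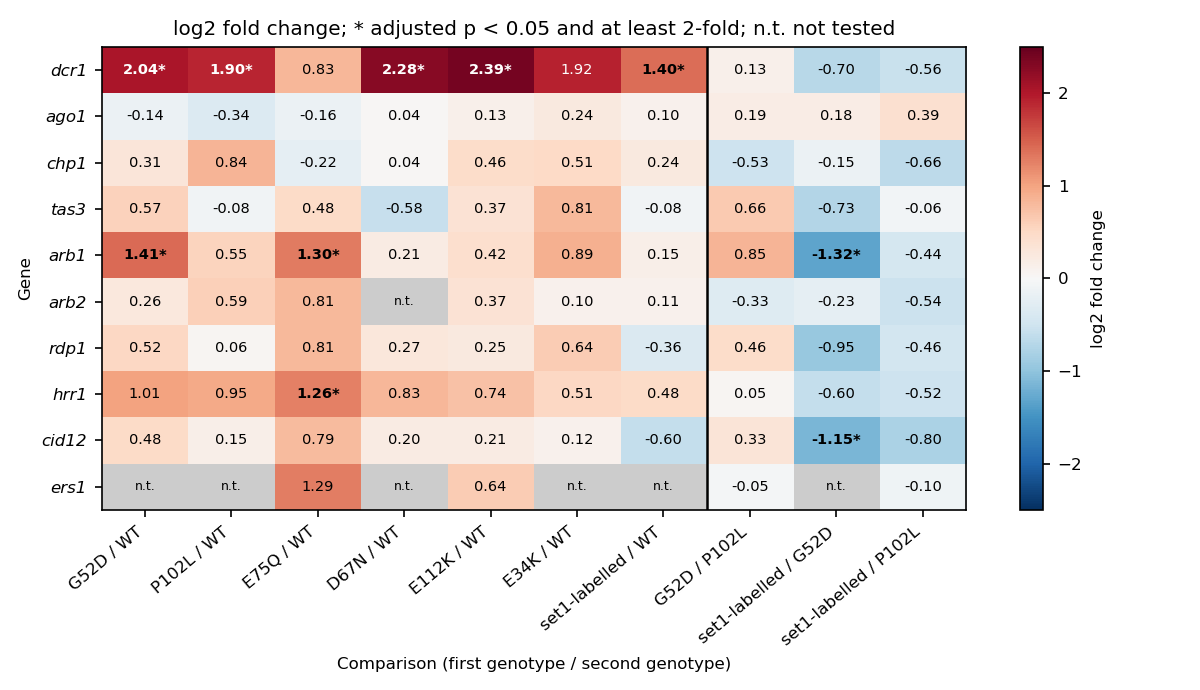
Log2 fold change of the 10 genes (rows) in the 7 comparisons with WT (left of the line) and in the 3 comparisons between mutants (right), with the first-named genotype over the second, red for higher and blue for lower. Asterisks mark the genes called by edgeR and n.t. those that did not pass the filter on low counts. *dcr1* holds 5 of the 8 calls against WT, from 1.40 to 2.39.

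The mutants were also compared with each other, following the study's interest in *htb1-G52D*, *htb1-P102L* and *set1*. In the set1-labelled libraries, *arb1* was lower than in *htb1-G52D*, with 4.97, 4.82 and 4.92 CPM against 13.4, 11.5 and 11.7 CPM (log2 fold change -1.32, SE 0.140, edgeR adjusted p = 7.84e-05). *cid12* was lower as well, with 3.86, 2.33 and 2.23 CPM against 7.07, 5.22 and 6.07 CPM in *htb1-G52D* (log2 fold change -1.15, SE 0.251, edgeR adjusted p = 0.00532). These were 2 of the 9 RNAi genes tested, where 11.8% of all genes were called lower and 5.25% higher. The groups did not overlap for either, nor for *dcr1* and *rdp1*, and 30.7% of all genes were lower without overlap. The *cid12* call was lost without set1-labelled replicate 3 (-0.96) and with the gene-length correction (-0.72). *rdp1* had an adjusted p of 0.0326 in edgeR but differed by less than 2-fold (log2 fold change -0.95, SE 0.314), and the *dcr1* difference was -0.70 (SE 0.262, edgeR adjusted p = 0.0523).

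No RNAi gene was called by edgeR or DESeq2 between the set1-labelled libraries and *htb1-P102L*, where 4 of 10 had an unadjusted p under 0.05 (48.6% of all genes). The same 4 had an adjusted p under 0.05 with differences under 2-fold: *cid12* (log2 fold change -0.80, SE 0.223), *chp1* (-0.66, SE 0.230), *arb1* (-0.44, SE 0.155) and, in the other direction, *ago1* (0.39, SE 0.126). By adjusted p alone 18.5% of all genes were higher and 22.1% lower in that comparison, and 3.43% and 6.71% were called. Between *htb1-G52D* and *htb1-P102L* none of 10 was called by either tool, and 1 had an unadjusted p under 0.05 (33.7% of all genes). This was *arb1*, with 13.4, 11.5 and 11.7 CPM in *htb1-G52D* against 7.90, 5.94 and 6.29 CPM in *htb1-P102L* (log2 fold change 0.85, SE 0.168, edgeR adjusted p = 0.00712). Of all genes, 3.37% were called higher and 3.39% lower. *arb1* and *cid12* were higher without overlap of the 2 groups, as were 19.5% of all genes, with 19.2% lower. *dcr1* differed by 0.13 (SE 0.293) between these mutants, and its sign depended on the libraries used.

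In 3 genotypes most RNAi genes were highest in the same library. The summed level of the 10 genes was 52.2, 38.8 and 42.4 CPM in *htb1-G52D*, 42.1, 54.5 and 38.5 CPM in *htb1-E75Q* and 52.3, 36.9 and 36.1 CPM in *htb1-E34K*, against 28.3, 28.9 and 32.8 CPM in WT. In *htb1-G52D* and *htb1-E75Q*, 9 of 10 genes were highest in the same library (replicate 1 and replicate 2), and in *htb1-E34K* 8 of 10 were highest in replicate 1. Of all genes, 44.7%, 45.4% and 45.5% were highest in those libraries. No such library was seen in WT (4, 3 and 3 genes highest in replicates 1, 2 and 3) or *htb1-E112K* (3, 2 and 5), and the most in 1 library was 5 in the set1-labelled libraries, 6 for *htb1-P102L* and 7 for *htb1-D67N*. The share of all counts held by the 100 most abundant genes moved with this: the library with the smallest share had the highest RNAi sum in 7 of 8 genotypes, *htb1-E34K* being the exception, and single genes were highest in that library in 43 of 80 cases. Of all genes, between 24.3% (*htb1-E34K*) and 45.4% (*htb1-E75Q*) were highest in that library of their genotype. The share of the 100 most abundant genes averaged 56.7% ± 2.67 for *htb1-G52D*, 57.9% ± 3.11 for *htb1-E75Q* and 61.2% ± 0.944 for the set1-labelled libraries, against 64.1% ± 1.92 in WT, and its part in the results was not tested.

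**Figure D5:**
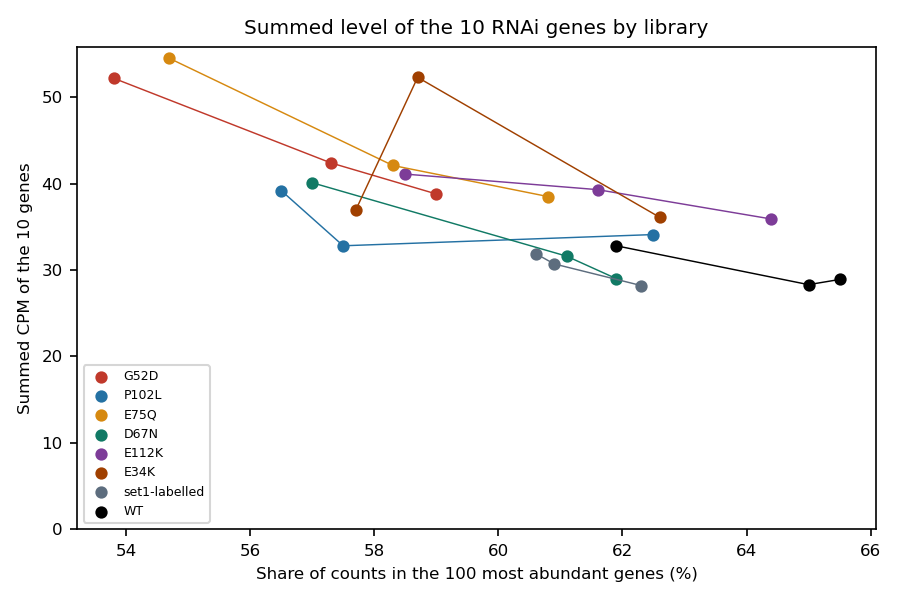
Summed CPM of the 10 RNAi genes in each library against the share of counts in the 100 most abundant genes (%), with the 3 libraries of a genotype joined by a line. The *htb1-G52D* and *htb1-E75Q* libraries with the highest sums, 52.2 and 54.5 CPM, had the smallest shares, and the 3 WT libraries lay between 28.3 and 32.8 CPM.

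Without the library with the smallest share in each genotype (a setting chosen after seeing the data), *dcr1* kept its 5 calls with log2 fold changes between 1.46 and 2.67, and *arb1* kept those in *htb1-G52D* (1.19) and *htb1-E75Q* (1.17). For *htb1-G52D* against WT these libraries, *htb1-G52D* replicate 1 and WT replicate 3, are also those that hold *ura4* counts. The 2 settings are therefore the same fit there. *hrr1* was no longer called in *htb1-E75Q* (0.87, edgeR adjusted p = 0.102).

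The genes lie among close neighbours. In ASM294v3, 8 of 10 RNAi genes have a neighbour that converges on their 3′ side, all except *chp1* and *arb1*, and 5 of these pairs overlap, while 56.1% of 5100 protein-coding genes have a convergent 3′ neighbour and 35.5% an overlapping one. *ago1* converges with *mmi1*, which encodes the YTH protein that removes meiotic transcripts, and *rdp1* with *ade3*. Of the 20 nearest neighbours on either side, 5 of 19 tested were called lower than WT in *htb1-G52D* (8.07% of all genes) and 5 of 20 in *htb1-E75Q* (8.48%), with *gar2*, *crb3*, *ade3* and *mrpl22* in both. The count was 1 of 20 for *htb1-P102L* (3.48%) and 2 of 19 each for *htb1-D67N* (4.48%) and *htb1-E112K* (2.34%). It was 0 of 19 for *htb1-E34K* (0.0%) and 0 of 20 for the set1-labelled libraries (1.3%). In these last 2 comparisons 5 and 7 neighbours were lower with an unadjusted p under 0.05 in edgeR, and DESeq2 called 0 lower. Of all genes, 18.5% and 38.9% had such a p in either direction. The only neighbour called higher than WT was SPAC18G6.01c, 93 bases from the 3′ side of *chp1* on the same strand. Its log2 fold change was 1.08 (SE 0.212) in *htb1-P102L*, 1.46 (SE 0.310) in *htb1-E75Q* and 1.10 (SE 0.191) in *htb1-E112K*. Of all genes, 9.93%, 13.0% and 7.96% were called higher there. *gar2*, a nucleolar protein gene upstream of *arb1* on the same strand, had log2 fold changes of -1.80 (SE 0.257) in *htb1-G52D* and -1.89 (SE 0.313) in *htb1-E75Q*, opposite to *arb1*. *mrpl22*, 325 bases from the 5′ side of *hrr1* on the other strand, was called lower in *htb1-G52D*, *htb1-P102L*, *htb1-E75Q*, *htb1-D67N* and *htb1-E112K*. Its log2 fold changes were -7.96, -3.32, -5.54, -4.31 and -3.125 in that order. They were -0.12 in *htb1-E34K* and 0.07 in the set1-labelled libraries, neither called. Each of the 10 RNAi genes also overlaps at least 1 noncoding RNA annotated on the other strand. Such an RNA spans 100% of *arb1*, and single ones cover 68.8% of *arb2*, 51.3% of *ago1*, 34.3% of *rdp1* and 24.9% of *dcr1*. These RNAs were not analysed here.

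Genes that work with the RNAi proteins were followed in 5 lists of 35 genes. Of the CLRC complex that methylates H3K9 and its RNAi link Stc1 (6 genes), 4 of 33 tests against WT were called higher: *raf2* in *htb1-G52D* and *htb1-E75Q*, *rik1* in *htb1-P102L* and *pcu4* in *htb1-E75Q*. *rik1* was too low to be tested in *htb1-G52D*, *htb1-D67N* and the set1-labelled libraries, and *raf2* in *htb1-D67N*. *stc1* could be tested only in *htb1-G52D* (log2 fold change -0.16, SE 0.571) and *htb1-E75Q* (-0.06, SE 0.706). Of 5 genes of small RNA trimming and turnover, 2 of 35 tests were called higher, both of *tri1*, which encodes the nuclease Triman, in *htb1-P102L* and *htb1-E75Q*. Among the 6 Paf1 complex genes and partners, *tpr1* was called higher and *mlo3* lower in *htb1-E75Q*, in 42 tests, and no other call was made against WT in these 3 lists. Of all tests against WT, 8.63% were called higher and 4.03% lower.

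The HP1 and silencing factor list (8 genes) had 10 calls higher and 1 lower in 56 tests, and the nuclear RNA surveillance list (10 genes) 9 higher and 3 lower in 70. Each list owed most of its calls to a few genes. *epe1*, which encodes a JmjC protein that opposes heterochromatin, was called higher in 5 genotypes, with 17.8, 16.2 and 17.6 CPM in *htb1-G52D* and 17.9, 16.4 and 17.6 CPM in *htb1-E34K*, against 5.58, 3.37 and 6.59 CPM in WT (log2 fold change 1.73 and 1.77, SE 0.228 and 0.264). *mit1*, the remodeler of the SHREC complex, was called higher in 5 genotypes with log2 fold changes from 1.66 to 2.26. *rrp6*, a nuclear exosome nuclease gene, was called higher in 5 with log2 fold changes from 1.58 to 2.15, and *erh1*, of the meiotic RNA elimination complex, was called lower in 3.

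The telomere-linked helicase genes *tlh1* and *tlh2*, whose transcripts are known to appear when subtelomeric heterochromatin is lost, have 5 entries that share near-identical sequence, so their counts are uncertain. All 5 were called higher than WT in *htb1-G52D*, *htb1-E112K* and the set1-labelled libraries, 4 of 5 in *htb1-D67N*, and none in *htb1-P102L*, *htb1-E75Q* or *htb1-E34K*.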

How the data were processed

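The authors deposited, for each of 7 comparisons with WT, a full table of 5195 genes with raw read counts per gene and library, FPKM per gene and library, and their own means, log2 fold changes, p-values and FDR, which were not used, and a table of called genes, also not used. Per the study's methods, reads were filtered with fastp, cleared of rRNA with Bowtie2, aligned with HISAT2 to an Ensembl genome and converted to FPKM with StringTie. The submitters' processing notes also name RSEM and DESeq2 without a role. The counting program and its use of strand were not given in the sources used here. Locus tags matched 5109 genes to ASM294v3 (RefSeq), used only for names, exonic length and neighbours, since the authors' build may differ.

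Counts were tested in edgeR 4.0.16 (R 4.3.3) with filterByExpr, TMM scaling, glmQLFit and glmQLFTest, 3 libraries against 3, with the study's thresholds (adjusted p under 0.05 and at least 2-fold). An F test over all 24 libraries asked whether a gene varied among the 8 genotypes. The labels do not say that the samples came from separate cultures, but the methods name independent biological repeats. Replicates of each genotype differed by more than counting noise. The scripts were tested on simulated data with 200 changed genes. Tables and figures were made with Python 3.11.15 (NumPy 2.4.6, pandas 2.3.3, matplotlib 3.10.9).

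The 10 genes, the lists and the tests were chosen with earlier results of these data known. All 10 genes are named, with the list genes called in most comparisons, the nearest neighbours and the 3 genes most like *dcr1*. Alternatives were DESeq2 1.42.0, scaling to total counts, a minimum of 10 counts in each library or no filter, the replicate number as a block, 1 fit of all 24 libraries, the adjusted p alone, a gene-length correction (loess, span 0.5, as an offset), leaving out the libraries that hold *ura4* counts, and leaving out each library. Added after the data were seen were leaving out the library with the smallest top-100 share of each genotype and the F test without WT. Deviations of same-numbered samples correlated at over 0.1 in every pair for *htb1-D67N* and WT alone (0.173, 0.351 and 0.452). The main fits, that of *htb1-D67N* included, were unpaired, and the replicate number entered only as the block named above.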

Additional observations from a re-analysis of the deposited data

Results flagged for a closer look

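*arb1* and *cid12* were picked out because their change from WT differed between 2 genotypes in a direct test. *arb1* was lower in the set1-labelled libraries than in *htb1-G52D* by a log2 fold change of -1.32 (SE 0.140, edgeR adjusted p = 7.84e-05, 3 libraries each). *cid12* was lower by a log2 fold change of -1.15 (SE 0.251, edgeR adjusted p = 0.00532). All 3 set1-labelled libraries lay below all 3 *htb1-G52D* libraries for both genes, as they did for *dcr1*, *rdp1* and 30.7% of all genes. The *cid12* call was lost without set1-labelled replicate 3 and with the gene-length correction. The libraries called set1-labelled held more *set1* counts than WT, so the direction is that of the labelled libraries. Groups of 3 libraries were not searched for outlying samples.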

How the results depend on the processing

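No called fold change of the RNAi genes changed sign under an alternative. With total-count scaling the number of genes called was 4 for *htb1-G52D*, 3 for *htb1-P102L*, 4 for *htb1-E75Q*, 2 for *htb1-E112K*, 1 between *htb1-G52D* and *htb1-P102L* and 3 in place of 2 between the set1-labelled libraries and *htb1-G52D*. The share of all genes called moved too: those higher and lower were then 33.9% and 1.12% for *htb1-G52D*, 17.8% and 1.48% for *htb1-P102L*, 28.5% and 1.42% for *htb1-E75Q*, 15.2% and 0.57% for *htb1-E112K*, 4.83% and 1.38% between *htb1-G52D* and *htb1-P102L*, and 1.67% and 21% between the set1-labelled libraries and *htb1-G52D*. With at least 10 counts in every library *dcr1* was not tested and 0 genes were called in *htb1-P102L*, *htb1-D67N*, *htb1-E112K* and the set1-labelled libraries. The gene-length correction left 1 in *htb1-E75Q* and 1 between the set1-labelled libraries and *htb1-G52D*, and gave 6 genes that varied among the 8 genotypes in place of 3. Those added were *ago1*, *chp1* and *tas3*, in a test that 3512 of 5030 genes then passed. DESeq2 and the single fit of all libraries each called 1 in *htb1-E34K*. By adjusted p alone there were 2 in *htb1-P102L*, where 1023 of 4862 genes were higher and 831 lower. There was 1 between *htb1-G52D* and *htb1-P102L* (472 higher and 463 lower of 4928 genes). There were 4 between the set1-labelled libraries and *htb1-P102L* (18.5% of all genes higher and 22.1% lower). *cid12* joined those called in *htb1-E75Q* (950 higher and 808 lower of 4868 genes). *rdp1* joined those called between the set1-labelled libraries and *htb1-G52D* (961 higher and 1291 lower of 4915 genes). Without the *ura4* libraries 1 was called in *htb1-E75Q*, and without the library with the smallest top-100 share 1 in *htb1-E75Q*, 2 in *htb1-D67N* (*tas3* lower) and 1 between the set1-labelled libraries and *htb1-P102L*. The causes were not tested, except that the count minimum removes *dcr1*.

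Leaving out 1 library gave 2 to 3 calls for *htb1-G52D*, 1 to 3 for *htb1-P102L*, 1 to 2 for *htb1-E75Q*, 1 to 2 for *htb1-D67N*, 0 to 1 in the set1-labelled libraries, 1 to 3 between those and *htb1-G52D*, 0 to 1 between those and *htb1-P102L*, and 3 to 5 genes in the F test. Without WT replicate 2 *htb1-P102L* had 3 (*dcr1*, *chp1*, *hrr1*), and without WT replicate 1 *htb1-D67N* had 2 (*arb2* lower). Of the 93 tested values of the 10 genes in all comparisons, 35 took both signs over the settings, none of them called. Of those whose fold changes are given singly in the text for *dcr1*, *arb1* and *hrr1*, signs turned for *dcr1* between *htb1-G52D* and *htb1-P102L* (-0.14 with the length correction, -0.19 without the *ura4* libraries, and from -0.0379 to 0.40 without 1 library), for *arb1* in the set1-labelled libraries (-0.00042 without the *ura4* libraries, -0.0176 without the library with the smallest top-100 share, and from -0.00042 to 0.43 without 1 library) and for *hrr1* in *htb1-E34K* (from -0.0197 to 0.79 without 1 library). With the replicate number as a block the number of RNAi genes called was the same in all 7 comparisons with WT (2, 1, 2, 1, 1, 0 and 1 in the order *htb1-G52D*, *htb1-P102L*, *htb1-E75Q*, *htb1-D67N*, *htb1-E112K*, *htb1-E34K* and set1-labelled), and 3 genes varied among the genotypes. Depth limits *ers1*, *arb2* and *dcr1* most, at 2, 5 and 6 counts in their lowest library.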
